A study of Mus musculus with 6 samples.

Results

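Malat1, Neat1, Gas5, Snhg1, Snhg3, Snhg6, Snhg8 and Snhg12 are RNAs that code for no known protein, and their levels were read in haematopoietic stem cells (HSCs) from the bone marrow of control mice and of mice with a Csf1r-Cre deletion of Maea, which encodes an E3 ubiquitin ligase. The members were the rows of the deposited expression table whose gene symbol equalled one of these 8 names, 8 of 46959 rows. RNA was sequenced from 3 control and 3 MaeaCsf1r-Cre libraries, each from about 2000 sorted HSCs (CD150+ CD48- cells of the lineage- Sca-1+ c-kit+ compartment) pooled from a pair of mice at 8 weeks of age by the series' own text. MaeaCsf1r-Cre mice carry floxed Maea alleles and a Cre under the promoter of Csf1r, the receptor gene of monocytes and macrophages, so that cells other than HSCs can lose Maea as well. The controls were littermates, labelled only as control, so which of the floxed and Cre alleles they carried was not given for these libraries, and mice of both sexes were used in the study. Levels were counts per 1000000 reads of a library (CPM).

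Malat1 lies in nuclear speckles, where splicing factors gather, and Neat1 is the scaffold around which the nuclear bodies called paraspeckles form. The other 6 genes are hosts of small nucleolar RNAs (snoRNAs). Their introns are cut out and trimmed into snoRNAs that guide chemical modification or processing of ribosomal RNA, while the spliced exons leave the nucleus and are often removed by nonsense-mediated decay, a pathway that destroys RNAs whose reading frames end early. Many snoRNA hosts begin with a run of pyrimidines at the start of transcription, a feature that they share with ribosomal protein genes.

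The starts of the host genes are shown because this feature can be read in them. Each sequence covers 60 bases, 40 before and 20 from the start of transcription, taken from RefSeq on GRCm38.p6. Capitals mark TATA, searched between 40 and 20 bases before the start, and the longest run of at least 5 bases that are each C or T and that begins within 5 bases of the start, both on the transcribed strand.
Gas5, chr1:161035126-161035185, plus strand: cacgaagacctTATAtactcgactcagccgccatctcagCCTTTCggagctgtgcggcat
Snhg1, chr19:8723447-8723506, plus strand: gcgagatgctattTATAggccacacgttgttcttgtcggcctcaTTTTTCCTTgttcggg
Snhg8, chr3:123508317-123508376, minus strand: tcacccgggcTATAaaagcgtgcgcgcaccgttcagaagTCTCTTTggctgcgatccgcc
Snhg12, chr4:132308638-132308697, plus strand: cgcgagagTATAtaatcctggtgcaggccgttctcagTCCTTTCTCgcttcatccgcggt
Snhg3, chr4:132353667-132353726, minus strand: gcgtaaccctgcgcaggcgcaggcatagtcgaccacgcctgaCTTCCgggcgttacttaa
Malat1, chr19:5802653-5802712, minus strand: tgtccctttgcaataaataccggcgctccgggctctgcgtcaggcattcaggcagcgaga
Of the 32851 promoters in the same RefSeq table, 5.81% held this TATA, 26.35% held such a run and 1.59% held both. Gas5 (at the second of its RefSeq starts), Snhg1, Snhg8 and Snhg12 held both. Snhg3 held the run alone, and Malat1 and the first start of Gas5 held neither. Neat1 and Snhg6 were not matched in that table. These matches are letters in a window and no test of how the genes are controlled.

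The snoRNAs themselves lie between the exons of their hosts. The GENCODE annotation of GRCm38 (release M21) places 27 snoRNA entries within the members, 10 in Gas5, 8 in Snhg1, 5 in Snhg12, 2 in Snhg3 and 1 each in Snhg6 and Snhg8. All 27 lie in an intron of the transcript of the host with the most exons, and 24 lie wholly inside an exon of some other transcript that keeps that intron. Of the 27 entries, 4 overlap another entry. The following examples are box C/D snoRNAs, the class that guides methylation of ribose, from 3 hosts, with box C (TGATGA, near the first base) and box D (CTGA, near the last base) in capitals, and 15 of the 27 entries held both boxes in these exact letters.
Snord47 in Gas5, chr1:161038082-161038158, plus strand: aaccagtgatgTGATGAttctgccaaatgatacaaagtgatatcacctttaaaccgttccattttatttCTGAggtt
Snord87 in Snhg6, chr1:9942463-9942549, minus strand: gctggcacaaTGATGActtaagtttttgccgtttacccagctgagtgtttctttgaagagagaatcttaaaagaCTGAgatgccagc
Snord99 in Snhg12, chr4:132310691-132310764, plus strand: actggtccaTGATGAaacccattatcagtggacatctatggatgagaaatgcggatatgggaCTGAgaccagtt
Of the 27 entries, 25 were listed at 0 in every library, and the highest value was 0.274 CPM, for Snora73b in Snhg3 in control replicate 1. The 37 mitochondrial rows were also listed at 0 in every library, so a listed 0 can mean that reads were not counted there, and reads over the 24 entries inside host exons may stand under the host. No level of the snoRNAs can be read from these zeros. Of the 26 names of a list of hosted snoRNAs, only 12 matched a row by name, and 0 of those had enough signal to be tested.

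**Figure D1:**
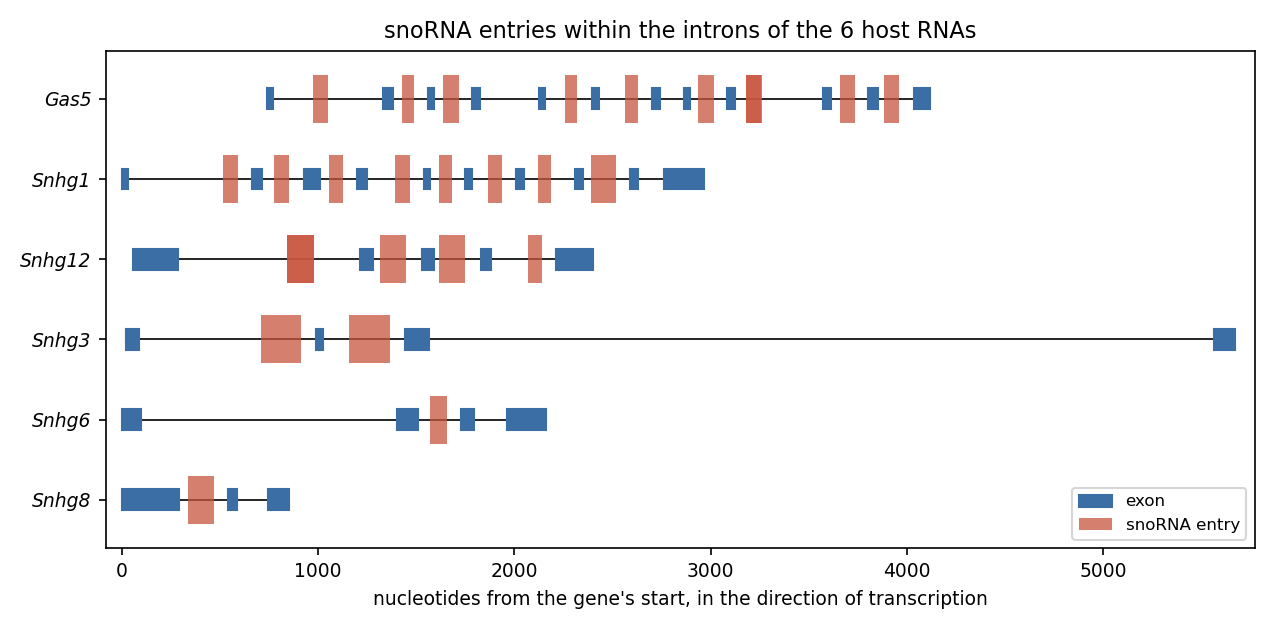
Maps of the 6 snoRNA host genes, with nucleotides from the start of each gene on the x axis in the direction of transcription. Blue boxes are exons of the transcript with the most exons and orange boxes are snoRNA entries, darker where entries overlap; each of the 27 entries sits between exons, from the 10 of Gas5 to the single entry of Snhg6 and Snhg8.

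The end of Malat1 is shown because its transcript is not finished by an ordinary poly(A) tail. The nascent RNA is cut after a genomically encoded A-rich stretch, and the piece beyond the cut folds like a transfer RNA. Positions 6589 to 6768 of the 6983-base Malat1 transcript (chr19:5795905-5796084 of GRCm38, minus strand) follow, with the 20-base window that holds the most A, 17 of 20, in capitals.
Malat1: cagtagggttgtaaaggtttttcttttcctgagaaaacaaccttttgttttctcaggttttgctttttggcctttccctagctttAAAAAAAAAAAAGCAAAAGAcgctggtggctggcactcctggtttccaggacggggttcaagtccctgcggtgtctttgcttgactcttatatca
The annotated transcript runs 290 bases beyond this window. The library kit, SMART-Seq v4, primes on runs of A.

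Depth differed between the groups. The reads behind the scaling, recovered from the steps between low values, were 32966000 to 39612000 in control and 44157000 to 60935000 in MaeaCsf1r-Cre libraries, so that every MaeaCsf1r-Cre library was deeper. A signal of 3 reads came to between 0.0492 and 0.0910 CPM, and the lowest member value in any library, Snhg12 in control replicate 1, stood for about 39 reads. The targeted gene, Maea, measured 108, 116 and 123 CPM in control and 76.9, 88.6 and 101 CPM in MaeaCsf1r-Cre replicates 1, 2 and 3, with a log2 fold change of -0.39 (adjusted p = 0.967 from limma); its values cover the whole gene and do not separate the deleted part. The 11 HSC markers were all above the filter, with a summed level of 1135 to 1819 CPM in control and 792 to 1495 CPM in MaeaCsf1r-Cre libraries. In RNA from a bulk of cells, fewer cells of a type and less RNA per cell cannot be told apart.

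The name abundant suited some of the members and not others. Levels of different genes were compared per kilobase of the longest annotated transcript, as the mean of the 6 libraries with its SD. Snhg3 stood at 38.3 ± 15.6 CPM per kilobase, Gas5 at 33.6 ± 4.38, Malat1 at 29.9 ± 7.93 and Snhg8 at 29.0 ± 4.22 (SD, n = 6). The ranges of these 4 over the libraries overlapped, so their order is not resolved. Per kilobase they took ranks 1714, 1950, 2199 and 2267 of 12831 tested genes with a length, and 12, 13, 14 and 15 of 515 long noncoding genes.

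Snhg6 at 6.92 ± 0.910 and Snhg1 at 6.19 ± 0.557 CPM per kilobase came next, with ranges that overlapped each other and lay below those of the first 4 (SD, n = 6). Snhg12 followed at 1.12 ± 0.220 CPM per kilobase, and Neat1 was the lowest at 0.178 ± 0.0508 (SD, n = 6), rank 514 of the 515 long noncoding genes. Neat1 is divided here by its 20771-base form, while its short form is far shorter, and the files do not separate them. With all annotated exons of a gene merged in place of the longest transcript, Malat1 (29.9), Snhg8 (26.4), Gas5 (22.8) and Snhg3 (22.6 CPM per kilobase) still had overlapping ranges above the other members.

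All 8 members passed the filter on low values, 1 CPM or more in 3 or more libraries. Each was compared on log2(CPM + 1) with limma's moderated test, two-sided, with Benjamini-Hochberg adjustment over all 12955 genes. None of the 8 members had an adjusted p under 0.05, with or without the replicate number as a block, and 1 of 12955 genes did (0.00772%) in either fit. That gene, named after its values were seen, was BC023719, which is no member but counts among the 515 long noncoding genes tested. It was listed at 0 in every control library and at 7.27 to 11.03 CPM in MaeaCsf1r-Cre libraries. At an unadjusted p under 0.05 the count was 1 member, Malat1, against 517 of all genes (3.99%), or 1805 (13.9%) with the block, where Malat1 was again the only member. The log2 fold changes of the members ran from -0.55 to 0.25, with a median of -0.01, against a median of -0.06 over all genes tested.

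Malat1 (lincRNA, chr19:5795690-5802672, minus strand) was lower in MaeaCsf1r-Cre HSCs. Control replicates 1, 2 and 3 held 240, 294 and 210 CPM, and MaeaCsf1r-Cre replicates 1, 2 and 3 held 137, 166 and 205 CPM. Every MaeaCsf1r-Cre library was below every control library, although the highest of the former and the lowest of the latter, both replicate 3, nearly met. The same was true of 785 of 12955 genes (6.06%). The mean was 248 ± 42.9 CPM in control and 169 ± 34.3 CPM in MaeaCsf1r-Cre HSCs (SD, n = 3 each), a ratio of 0.683.

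The log2 fold change, fitted by limma on log2(CPM + 1), was -0.55 (standard error, SE, 0.18; 95% interval -0.98 to -0.13), with an unadjusted p of 0.0174 and an adjusted p of 0.967. The differences within same-numbered libraries were -0.80, -0.82 and -0.03 for replicates 1, 2 and 3, so that the size rested on replicates 1 and 2. Among all tested genes, 5.47% had a lower log2 fold change than Malat1. Its level rested on 7178 to 11664 reads a library.

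Gm37376, an entry of the opposite strand at chr19:5801941-5802393, lies wholly within Malat1 and had 102, 160 and 95.6 CPM in control and 68.1, 72.8 and 93.3 CPM in MaeaCsf1r-Cre replicates 1, 2 and 3. It followed the same pattern, with a log2 fold change of -0.58 with an SE of 0.22 (adjusted p = 0.967 by limma). The source does not say that reads were counted by strand, so reads of Malat1 and Gm37376 cannot be told apart over these 453 bases. Per kilobase Gm37376 measured 218 CPM against 29.9 CPM for Malat1. The ratio of Gm37376 to Malat1 was 0.475 ± 0.0610 in control and 0.463 ± 0.0298 in MaeaCsf1r-Cre libraries (SD, n = 3 each). Summed before the fit, both entries gave a log2 fold change of -0.56 (adjusted p = 0.967 from limma), an alternative chosen after seeing the data.

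Several measured features moved with the groups beside Malat1. Of the 11 HSC markers, 9 were lower in MaeaCsf1r-Cre HSCs by their log2 fold change, with a median of -0.38, no adjusted p under 0.05 and overlapping groups for each. Kit, the gene of a receptor used in the sort, had 551, 700 and 573 CPM in control and 393, 450 and 562 CPM in MaeaCsf1r-Cre replicates 1, 2 and 3. Ly6a and Slamf1, the genes of the sort markers Sca-1 and CD150, were the 2 markers that were higher. Their log2 fold changes were 0.23 (SE 0.14) and 0.18 (SE 0.37). Of the 12 macrophage markers 9 were tested, all of which were lower by their log2 fold change and 5 without overlap, with no adjusted p under 0.05, a median log2 fold change of -1.57, and their list summed to 31.2 to 86.1 CPM in control and 4.64 to 55.2 CPM in MaeaCsf1r-Cre libraries. C1qa was listed at 0 in MaeaCsf1r-Cre replicates 1 and 2, and C1qb in replicate 2. Longer transcripts tended to be lower in MaeaCsf1r-Cre libraries (Spearman's rho of -0.298 between log2 fold change and length across 12831 genes, which are not independent). The part of these features and of depth in the value of Malat1 was not tested, beyond the length correction, under which its log2 fold change was -0.47.

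**Figure D2:**
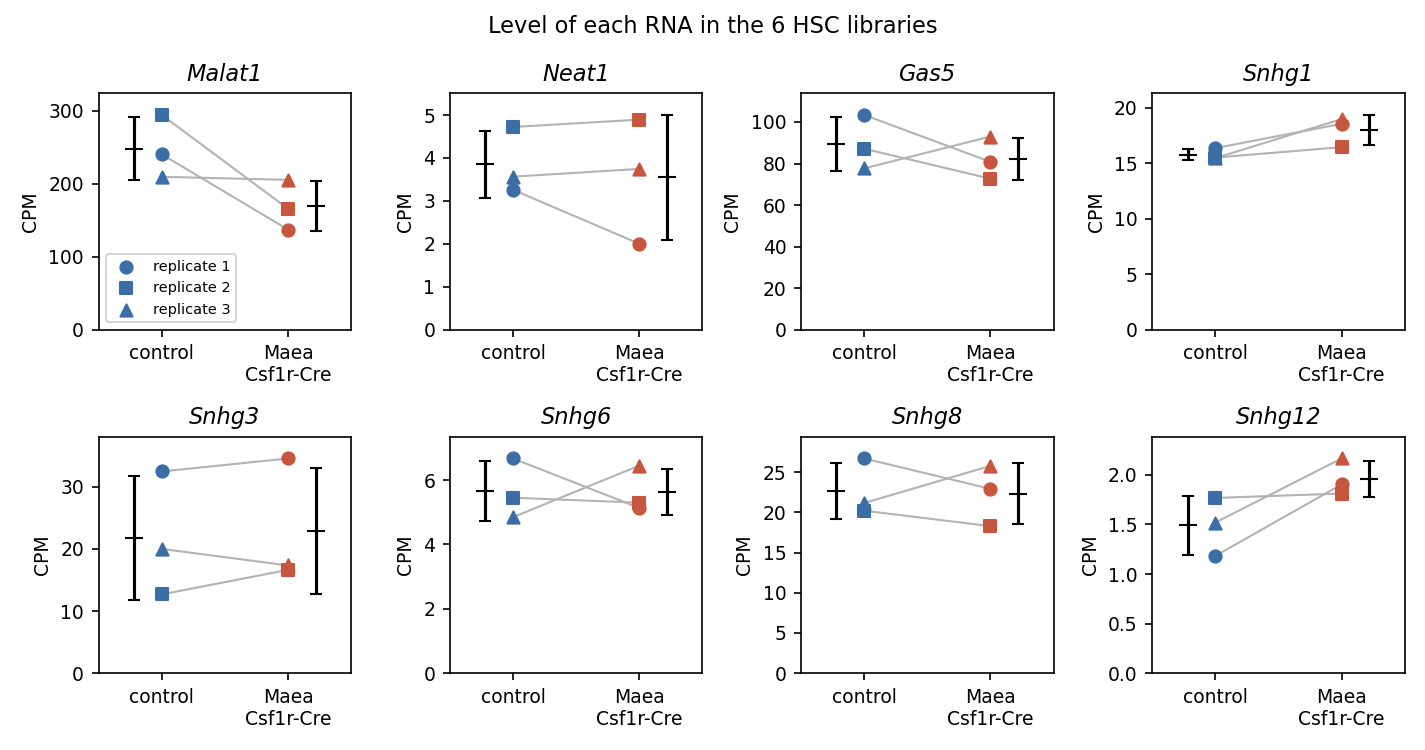
Level of each RNA in CPM (y axis, linear, from 0) in the 3 control (blue) and 3 MaeaCsf1r-Cre (orange) libraries, with a grey line joining libraries of the same replicate number and the mean ± SD of each group in black at the side. Malat1 is lower in all MaeaCsf1r-Cre libraries, at 137 to 205 CPM against 210 to 294 CPM; Snhg1 and Snhg12 are higher in all of them, and the groups of the other 5 RNAs overlap.

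Neat1 (lincRNA, chr19:5824708-5845478, minus strand) lies 22035 bases from Malat1 on the same strand and its groups overlapped, though a difference in response between Neat1 and Malat1 was not tested. Control replicates 1, 2 and 3 held 3.26, 4.72 and 3.56 CPM, and MaeaCsf1r-Cre replicates held 2.002, 4.89 and 3.74 CPM. MaeaCsf1r-Cre replicate 1 was the lowest of the 6 libraries and replicate 2 of that group the highest. The means were 3.85 ± 0.772 and 3.55 ± 1.45 CPM (SD, n = 3 each). Its fitted difference of -0.14 with an SE of 0.29 (adjusted p = 0.973 by limma) had a 95% interval of -0.81 to 0.54, which covers a difference of the size of that of Malat1 as well as none.

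Without MaeaCsf1r-Cre replicate 1 the log2 fold change of Neat1 was 0.14. The ratio of Neat1 to Malat1 CPM was 0.0136, 0.0160 and 0.0170 in control and 0.0146, 0.0295 and 0.0182 in MaeaCsf1r-Cre replicates 1, 2 and 3. Replicate 2 of the MaeaCsf1r-Cre group stood apart from the other 5 libraries, which lay between 0.0136 and 0.0182. The group means were 0.0155 ± 0.00178 and 0.0208 ± 0.00777 (SD, n = 3 each), a difference that is smaller than the spread in the MaeaCsf1r-Cre group.

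Gas5 (growth arrest specific, chr1:161034422-161038539, plus strand) is the host that holds the most snoRNA entries of the 6, and its exonic RNA is known to bind the glucocorticoid receptor. It measured 103, 87.1 and 77.6 CPM in control and 80.8, 72.7 and 93.0 CPM in MaeaCsf1r-Cre replicates 1, 2 and 3. The groups overlapped, with the highest library in control and the lowest in MaeaCsf1r-Cre HSCs. The means were 89.4 ± 13.01 and 82.2 ± 10.2 CPM (SD, n = 3 each). The fitted difference was -0.12 with an SE of 0.15 (95% interval -0.47 to 0.23, adjusted p = 0.967 by limma).

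Snhg1 (chr19:8723475-8726443, plus strand) measured 16.3, 15.5 and 15.5 CPM in control and 18.5, 16.4 and 18.97 CPM in MaeaCsf1r-Cre replicates 1, 2 and 3. Every MaeaCsf1r-Cre library was above every control library, by a narrow margin between MaeaCsf1r-Cre replicate 2 and control replicate 1. The means were 15.8 ± 0.505 and 17.98 ± 1.35 CPM (SD, n = 3 each). Fitted on the log2 scale, the difference was 0.18 with an SE of 0.15 (95% interval -0.17 to 0.53, adjusted p = 0.967 by limma).

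Snhg12 (chr4:132308623-132311024, plus strand) was the other host whose groups did not overlap. It measured 1.18, 1.77 and 1.52 CPM in control and 1.90, 1.81 and 2.17 CPM in MaeaCsf1r-Cre replicates 1, 2 and 3, on 39 to 116 reads a library. The MaeaCsf1r-Cre libraries were all higher, with MaeaCsf1r-Cre replicate 2 and control replicate 2 almost level. The means were 1.49 ± 0.293 and 1.96 ± 0.183 CPM (SD, n = 3 each), and the fitted difference was 0.25 with an SE of 0.21 (95% interval -0.24 to 0.75, adjusted p = 0.967 by limma). On this scale the pseudocount of 1 is close to the level itself and understates the change; the log2 fold change with a pseudocount of 0.1 was 0.39.

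Of all tested genes, 323 (2.49%) were higher in every MaeaCsf1r-Cre than in every control library, against 2 of the 8 members, and 785 (6.06%) were lower, against 1 of the 8. After rescaling of the libraries by median ratios the counts over all genes were 575 lower and 609 higher, and after quantile normalization 573 and 673, so that the excess of lower genes did not hold under either. Malat1, Snhg1 and Snhg12 remained without overlap after the median-ratio rescaling, in the same directions.

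Snhg3 (chr4:132348014-132353686, minus strand) lies 36989 bases from Snhg12 and varied more between replicates than between groups. It measured 32.5, 12.7 and 20 CPM in control and 34.6, 16.6 and 17.3 CPM in MaeaCsf1r-Cre replicates 1, 2 and 3. Replicate 1 was the highest library of both groups. Its log2 fold change was 0.09 with an SE of 0.38 (adjusted p = 0.983 by limma), and the interval of -0.79 to 0.96 allows sizeable differences either way.

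The 10 erythroid markers had the same replicate pattern, with a summed level of 7242 and 7171 CPM in replicate 1 of control and MaeaCsf1r-Cre and 2678 to 4315 CPM in the other 4 libraries. Whether this had a part in the values of Snhg3 was not tested. Snhg3 shares 135 bases of exon with Rcc1, which encodes the exchange factor of the GTPase Ran, on the same strand, and 71.5% of its exonic bases with Gm17300 on the other. Rcc1 measured 112, 95.8 and 99.5 CPM in control and 158, 106 and 109 CPM in MaeaCsf1r-Cre replicates 1, 2 and 3. Reads over the shared bases cannot be assigned with certainty, and the level of Snhg3 is uncertain to that extent.

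Snhg6 (chr1:9941959-9944118, minus strand) measured 6.67, 5.45 and 4.85 CPM in control and 5.14, 5.30 and 6.45 CPM in MaeaCsf1r-Cre replicates 1, 2 and 3, and shares 11.1% of its exonic bases with Mcmdc2 on the other strand. Its means were 5.66 ± 0.929 and 5.63 ± 0.717 CPM (SD, n = 3 each), with overlapping groups. Snhg8 (chr3:123507552-123508404, minus strand) measured 26.7, 20.2 and 21.2 CPM in control and 22.9, 18.3 and 25.8 CPM in MaeaCsf1r-Cre replicates 1, 2 and 3, and its groups overlapped too.

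The log2 fold changes of Snhg6 and Snhg8 were -0.00 (SE 0.20, 95% interval -0.47 to 0.47) and -0.03 (SE 0.19, 95% interval -0.46 to 0.41), with adjusted p of 0.9995 and 0.991 from limma. Gas5, Snhg6 and Snhg8 had a common pattern over the pairs of libraries. Each was lower in MaeaCsf1r-Cre than in control in replicates 1 and 2 and higher in replicate 3. In replicate 3 the differences were 0.26 for Gas5, 0.35 for Snhg6 and 0.27 for Snhg8 on the log2 scale. In replicate 2 the difference of Snhg6 was only -0.03. After median-ratio rescaling Gas5 kept this pattern, while Snhg6 and Snhg8 were higher in MaeaCsf1r-Cre than in control in replicate 2. Their rescaled values there were 5.72 against 5.28 for Snhg6 and 19.7 against 19.6 for Snhg8.

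**Figure D3:**
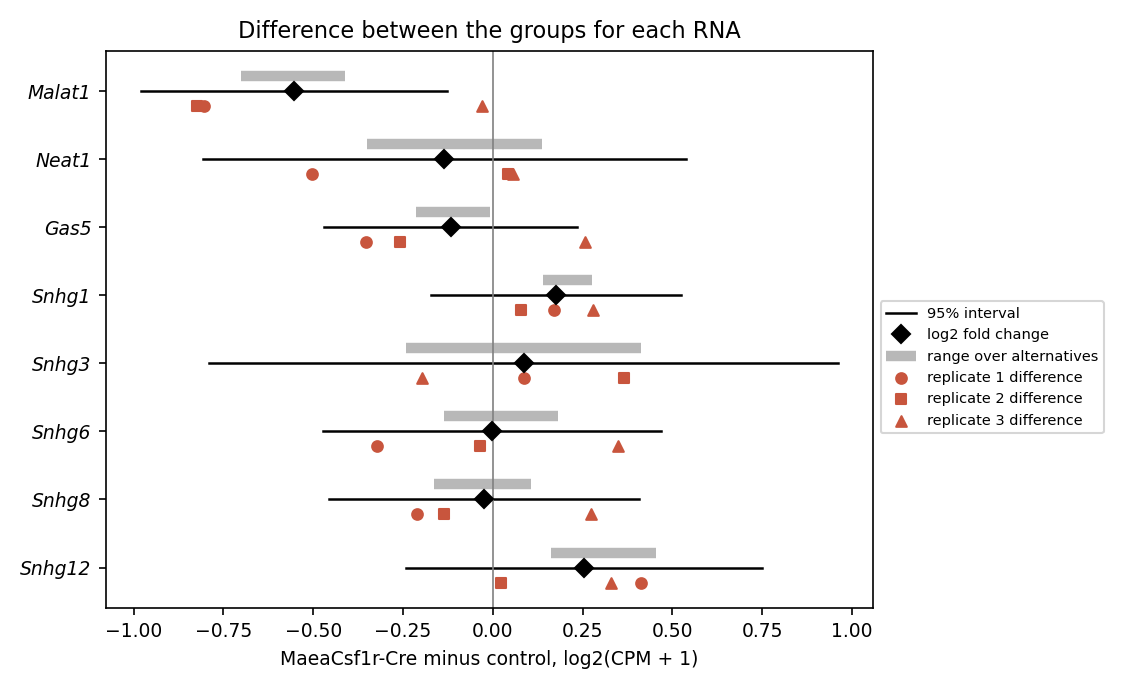
Difference between MaeaCsf1r-Cre and control on the log2(CPM + 1) scale (x axis) for each RNA. Diamonds and lines are the log2 fold change and its 95% interval from limma, orange symbols are the differences within same-numbered libraries, and grey bars span the log2 fold changes under the alternative settings; the interval of Malat1 (-0.98 to -0.13) alone lies off 0, and the grey bars of Malat1, Gas5, Snhg1 and Snhg12 stay on one side of 0.

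Summed over the 6 snoRNA hosts, the level was 187, 143 and 141 CPM in control and 164, 131 and 164 CPM in MaeaCsf1r-Cre replicates 1, 2 and 3. The groups overlapped in part, with the highest library in control and the lowest in MaeaCsf1r-Cre HSCs. The means were 157 ± 26.05 and 153 ± 18.8 CPM (SD, n = 3 each). Gas5 took 57.2% ± 3.33 of this sum in control and 53.8% ± 3.99 in MaeaCsf1r-Cre HSCs (SD, n = 3 each). On average it thus made up most of the level, which does not give its part in the differences between libraries. The sum is given without a test.

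**Figure D4:**
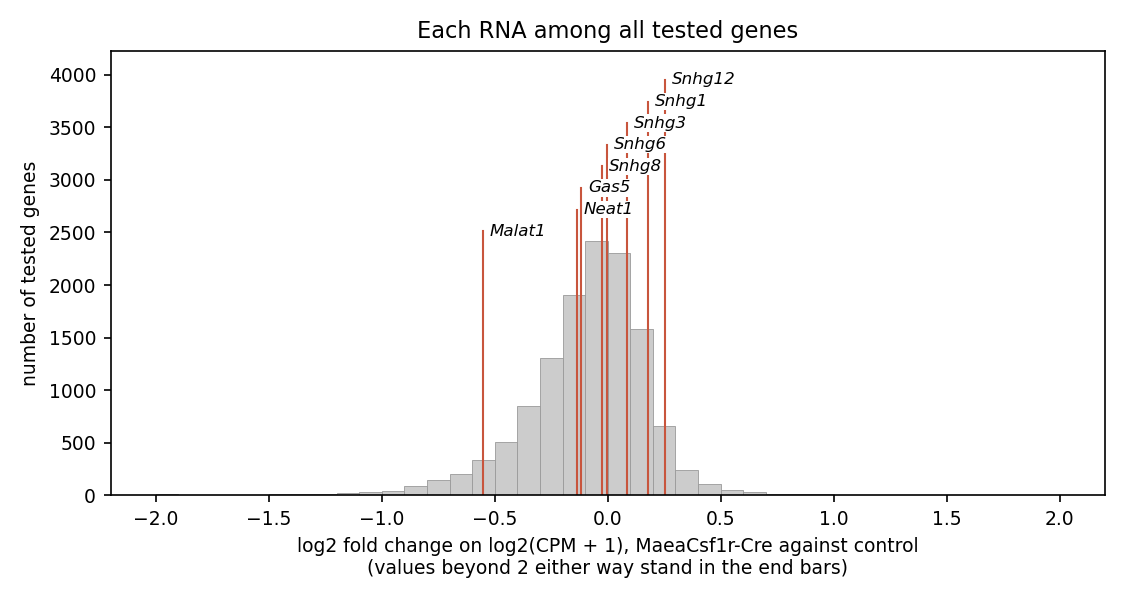
Number of tested genes (y axis) by log2 fold change in steps of 0.1 (grey bars, x axis), with an orange line at the value of each of the 8 RNAs. Malat1 at -0.55 lies in the lower flank, with 5.47% of the 12955 genes below it, Snhg12 at 0.25 lies in the upper flank with 94.5% below it, and the other 6 stand between 36.8 and 88.8%.

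The genes whose levels over the 6 libraries were most like those of the members were listed by Pearson's r of log2(CPM + 1), as a description. For Malat1 they were Arl13b (r = 0.993), a GTPase of cilia, Kif13b (0.992), a kinesin motor, and Sgsm1 (0.992), and 107 genes had an r of at least 0.95. For Neat1 they were Gfod1 (0.999), the signalling adaptor Sh2b1 (0.991) and the tyrosine kinase Fes (0.988), among 80 genes at that level. For the sum of the hosts they were Rexo1 (0.9996), an exonuclease-domain protein, Serinc5 (0.993) and Sh2d4a (0.990), among 77. Each r rests on the same 6 libraries, whose depth and cell mixture all genes share.

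The partners of these RNAs were read from lists. Of the 8 core proteins of snoRNA particles, 8 were higher by their log2 fold change (median 0.13; 7 after the length correction) and none passed the test or was free of overlap between groups; Nhp2, a protein of the box H/ACA particles, had 141 ± 29.5 CPM in control and 169 ± 34.6 CPM in MaeaCsf1r-Cre HSCs, and Gar1 had 50.0 ± 2.77 and 56.8 ± 9.80 CPM (SD, n = 3 each). Of 20 protein-coding snoRNA hosts none passed, 18 were higher, the median was 0.14, and Rpl13a, a ribosomal protein gene, had 151 ± 8.13 and 181 ± 21.5 CPM, while the translation factor gene Eif4a2 had 83.2 ± 6.43 and 55.7 ± 13.4 CPM (SD, n = 3 each). Nop56, Nop58 and Dkc1 stand in both lists, so their counts are not separate. Over all 12955 tested genes, 5060 were higher by their log2 fold change. Against these lists, the 6 hosts among the members had log2 fold changes on both sides of 0. Of 9 tested other noncoding snoRNA hosts none passed, with a median of 0.07 that was -0.05 after the length correction. Snhg20 (3.33 ± 0.488 and 1.96 ± 0.282 CPM) and Dancr (2.19 ± 0.312 and 1.60 ± 0.197 CPM) were lower in every MaeaCsf1r-Cre library (SD, n = 3 each).

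Of the 16 factors of nonsense-mediated decay none passed, with a median log2 fold change of 0.00. Smg9 had 22.9 ± 1.62 CPM in control and 28.6 ± 2.64 CPM in MaeaCsf1r-Cre HSCs, and the helicase gene Upf1 had 97.5 ± 3.41 and 84.3 ± 12.2 CPM (SD, n = 3 each). Of the 11 paraspeckle proteins none passed (median -0.00), among them Dazap1 with 67.5 ± 3.64 and 79.6 ± 12.1 CPM and Tardbp, which encodes TDP-43, with 79.8 ± 13.1 and 70.7 ± 7.37 CPM (SD, n = 3 each). Of the 14 nuclear speckle proteins none passed (median -0.02), with Srrm1 at 126 ± 4.73 and 137 ± 12.7 CPM and the kinase gene Prpf4b at 53.3 ± 3.46 and 48.9 ± 8.40 CPM (SD, n = 3 each). The genes of proteins that share a nuclear body with Malat1 thus had a median near 0, as the genes of paraspeckle proteins had beside Neat1. With median-ratio rescaling 10 of the 14 speckle genes and 9 of the 11 paraspeckle genes were higher. Their medians were then 0.05 and 0.06. The same rescaling moved the median of all 12955 tested genes from -0.06 to 0.0002, with 6481 of them higher. All of these are RNA levels, and protein was not measured.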

How the data were processed

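Per the labels and methods, the authors used the SMART-Seq v4 kit followed by Nextera XT, Trim Galore for trimming, STAR 2.5.3a for alignment to mm10, and Partek Flow for quantification and normalisation. Values were deposited as CPM after the authors had added 0.0001, which was subtracted here. The rows held 75.2 to 80.2% of the scaling total. Of the low values 76.1 to 78.2% lay within 0.05 of a whole read, so read counts were not recovered for nearly all genes and no test for counts was used. Depths came from these steps, and limits from reads cover counting error only.

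Genes that reached 1 CPM in 3 or more libraries were tested with limma 3.58.1 (R 4.3.3, mean-variance trend) on log2(CPM + 1), and the procedure was tested on simulated data. The threshold was an adjusted p of 0.05. Replicate numbers come from the sample titles. Deviations from the group means correlated across genes between libraries of equal number (r = 0.627, 0.523 and 0.397), so the numbers were taken to pair the samples, although no source says so, and a fit with that block was run for every test. Each library is a pool, and p-values measure the spread between pools.

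The members and gene lists were chosen with earlier results of these data known. Genes named were the 8 members, Maea and the pair of genes with the smallest p in each pathway list. The 3 genes with the highest r to Malat1, Neat1 and the summed hosts were named as well. Overlapping genes, genes shared between lists, and Kit, Ly6a, Slamf1, C1qa and C1qb stand beside results they touch. Lengths and positions are from GENCODE M21, which is later than the annotation the authors used, and 44901 of 46959 rows matched. Alternatives were a pseudocount of 0.1, no filter, a CPM of at least 10, median-ratio rescaling, quantile normalization, no trend, a length correction (loess, span 0.5) with and without the block, and each library left out in turn. Figures were drawn with matplotlib 3.10.9, and tables made with pandas 2.3.3 and numpy 2.4.6 in Python 3.11.15.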

Additional observations from a re-analysis of the deposited data

How the results depend on the processing

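No member had an adjusted p under 0.05 under any alternative, and the lowest was 0.262, for Malat1 with the replicate block. Of 119 values of the members under the alternatives 102 kept their direction and 17 did not, and those 17 were of Neat1, Snhg3, Snhg6 and Snhg8. The count of 102 overstates stability. With no filter, a CPM of at least 10, the replicate block or no trend, the log2 fold change equals the reported one by construction and could not reverse. The length correction also gave the same log2 fold changes with and without the block. Malat1 stayed between -0.70 and -0.41, Gas5 between -0.21 and -0.01, Snhg1 between 0.14 and 0.28 and Snhg12 between 0.16 and 0.45. With median-ratio rescaling the log2 fold change was 0.050 for Snhg6 and 0.035 for Snhg8, and with quantile normalization 0.061 for Neat1, 0.18 for Snhg6 and 0.059 for Snhg8. With the length correction, with or without the replicate block, it was 0.027 for Neat1 and -0.078 for Snhg3. With each library left out in turn it ran from -0.35 to 0.14 for Neat1, -0.24 to 0.41 for Snhg3, -0.092 to 0.10 for Snhg6 and -0.13 to 0.11 for Snhg8. The cause of these reversals was not tested. Neat1, Snhg6 and Snhg12 had no value under the filter at a CPM of 10.

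The replicate block changed no call of a member. Its adjusted p for Malat1 was 0.262, and 0.264 for Malat1 summed with Gm37376, which was added after seeing the data. Over all genes 1 was called in the fit as reported, 0 at a CPM of at least 10 (302 at an unadjusted p under 0.05), 9 with the length correction and the block, and 0 to 3 with a library left out: 0 without control replicate 2 (266 unadjusted) or 3 (331), and 3 without MaeaCsf1r-Cre replicate 3. Genes lower in every MaeaCsf1r-Cre library numbered 1364 of 24971 with no filter and 494 of 9298 at a CPM of at least 10. Genes higher in every such library numbered 616 of 24971 with no filter. Of 12955 genes, 609 were higher in this way with median-ratio rescaling and 673 with quantile normalization. The summed hosts, -3.79 CPM in MaeaCsf1r-Cre minus control, ranged from -11.8 to 11.2 CPM with a library left out. The difference changed sign without control replicate 1 (11.2 CPM) and without MaeaCsf1r-Cre replicate 2 (7.09 CPM), so its direction is not resolved. The difference in the ratio of Neat1 to Malat1 ranged from 0.000882 to 0.00834 with a library left out.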

Other observations

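Other long noncoding RNAs were read from a list chosen with earlier results known. Of 20 well-known ones 13 were tested, none passed limma's test, 11 were lower by their log2 fold change under each scaling tried, and the median was -0.35 (-0.30 with median-ratio rescaling and -0.18 with quantile normalization). After the length correction 10 of the 13 were lower, with a median of -0.19. Over all 12955 tested genes 7895 were lower in the fit as reported, 6474 with median-ratio rescaling and 6072 with quantile normalization. After the length correction 8191 of 12831 were lower. Of the 13, 5 were lower in every MaeaCsf1r-Cre library and 0 were higher. Peg13, an imprinted RNA, measured 41.5, 64.3 and 54.8 CPM in control and 19.5, 38.7 and 39.4 CPM in MaeaCsf1r-Cre replicates 1, 2 and 3, with no overlap between groups. Jpx, an activator of Xist, had 7.05 ± 0.855 CPM in control and 4.71 ± 0.811 CPM in MaeaCsf1r-Cre HSCs (SD, n = 3 each), again without overlap. Over all 515 tested long noncoding genes the median log2 fold change was -0.10, against -0.07 for 11437 protein-coding genes, and 8.54% against 6.27% were lower in every MaeaCsf1r-Cre library.

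Xist, which coats the inactive X chromosome of female cells, was listed at 0 in replicate 2 of both groups and at 93.4 to 166 CPM in the other 4 libraries. Of 9 RNAs made by RNA polymerase III or held in stable particles 4 were tested, none passed and the median was -0.07. Rpph1, the RNA of RNase P, measured 1.11 ± 0.127 and 1.001 ± 0.270 CPM, and Rn7s1, a near-identical copy of Rn7s2 whose reads cannot be separated from it with certainty, 81.5 ± 30.3 and 74.4 ± 3.80 CPM (SD, n = 3 each).

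Of the markers of other cells, 1 of 10 for B cells, 1 of 8 for T and NK cells, 4 of 10 for neutrophils, 10 of 10 for erythroid cells and 7 of 7 for megakaryocytes were tested, none passed, and the groups overlapped for each. The median log2 fold changes were 0.07 for the erythroid and -0.17 for the megakaryocyte list.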
